A study of Homo sapiens with 8 samples.

Results

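JAG1 and 9 other genes of the Notch pathway were examined in MDA-MB-231, an established line of human breast cancer cells labelled estrogen receptor negative. The 10 genes (JAG1, JAG2, NOTCH1, NOTCH2, NOTCH3, LFNG, RBPJ, MAML1, HES1 and HEY1) were taken by symbol from the deposited expression table, and all 10 were among the 17649 genes tested. RNA-Seq was performed on 4 control libraries, from cells that received PBS, and on 4 libraries from cells exposed to 1 μM CML for 48 hours, both in low-glucose medium. CML (N-carboxymethyl-lysine) is an advanced glycation end product, which forms when sugars react with lysine, and the comparison asked which transcripts change on exposure to it. All libraries came from a single cell line, and the labels number the replicates 1 to 4 without saying whether these were separately grown cultures, so that p-values measure the spread between these samples only.

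Notch signaling passes between neighboring cells that touch. A ligand on one cell (JAG1, JAG2 or a Delta-like protein) binds a Notch receptor on the next, ADAM proteases and then γ-secretase cleave the receptor, and its intracellular part enters the nucleus, joins the DNA-binding protein RBPJ and a Mastermind-like coactivator (MAML1), and turns on genes of the HES and HEY families, which encode transcriptional repressors. LFNG, a sugar transferase of the Golgi, modifies the receptors and alters which ligands they respond to. In breast cancer, JAG1 is known as a ligand linked to metastasis and to the growth of stem-like cells.

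The values are CPM, read counts scaled to the depth of each library and, by the methods of the study, to edgeR's TMM factors, which even out differences in composition between libraries. The reads behind them came to between 16161799 and 18954729 per library, and 1 read was worth between 0.0535 and 0.0622 CPM. The libraries carried the pattern of the labelled line. VIM, a filament protein of mesenchymal cells, stood between 4014 and 4243 CPM, and CD44, a surface protein of mesenchymal-like breast cancer cells, between 803 and 885 CPM. The epithelial cadherin CDH1 did not exceed 0.954 CPM and the progesterone receptor PGR did not exceed 0.114 CPM, while ESR1 was not analysed here. Of markers of cells that such a culture should lack, PTPRC of leukocytes ranged from 0.116 to 0.650 CPM, PECAM1 of endothelium from 2.36 to 3.84 CPM, PDGFRB from 3.07 to 4.88 CPM and COL1A1 from 9.40 to 13.3 CPM, the last 2 being fibroblast genes. The keratins KRT18 and KRT8 lay between 310 and 355 CPM and between 183 and 239 CPM. None of the 4 genes of other cell types passed the test between the groups (limma, lowest adjusted p = 0.733, for PDGFRB).

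The libraries differed in base composition, with both libraries numbered 4 toward one end and control replicate 1 at the other. Among genes that averaged 1 CPM or more, those with the highest GC content in the transcript (at least 61.5%) deviated from the mean of the libraries by a median log2 value of −0.19 in control replicate 4 and −0.12 in CML replicate 4, compared with 0.14 in control replicate 1 and between −0.01 and 0.07 in the rest. Those with the lowest GC content (at most 38.2%) deviated by 0.07 in both libraries numbered 4 and by −0.08 in control replicate 1. The main results are also given without the libraries numbered 4, and those for JAG1 and HES1 without control replicate 1.

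JAG1, 7.95% higher with CML, was the member that limma called at an adjusted p under 0.3. That call was lost with median centring and without control replicate 2, CML replicate 2 or CML replicate 3. JAG1 was far above the other canonical ligands, per kb of transcript, in every library. HES1, a direct Notch target, was lower in every CML library than in any control library but did not pass the test. The receptors NOTCH1 and NOTCH2, the nuclear components RBPJ and MAML1, the glycosyltransferase LFNG and the target HEY1 had overlapping groups. JAG2 and NOTCH3 were near the limit of what this depth can measure.

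JAG1 encodes a transmembrane ligand of the Notch receptors, and the gene lies at chr20:10637684-10673999 (GRCh38.p14, minus strand). Its CPM was 288, 289, 298 and 291 in control replicates 1 to 4. In CML replicates 1 to 4 it was 312, 322, 316 and 309. The groups did not overlap, and the lowest CML library was above the highest control library by more than the SD of either group. The mean was 292 ± 4.30 CPM in control cells (SD, n = 4) and 315 ± 5.40 CPM with CML (SD, n = 4). On the log2(CPM + 1) scale the fold change was 0.11 with a standard error of 0.017 (95% confidence interval, 0.07 to 0.15), and limma gave a p of 0.000333, or 0.145 after Benjamini-Hochberg adjustment over all genes. A 2-sided exact permutation test over the 70 labellings of the 8 libraries gave p = 0.0286, the smallest that 4 against 4 can give. Any gene whose groups do not overlap reaches this p, so it restates the separation of the groups. Among genes averaging 1 CPM or more, CML lay above control without overlap for 3.04% and below it for 1.30%. The members, JAG1 included, were chosen with earlier results of these data known. Between 4834 and 6016 reads supported each value, for which counting error alone is a coefficient of variation of 1.29% to 1.44%, close to the observed 1.47% in control and 1.72% in CML-exposed cells. An annotated RNA gene, ENSG00000270792, overlaps JAG1 on the opposite strand, and since the counting is not stated to use strand, reads from the 2 cannot be told apart. In bulk RNA, more JAG1 per cell and a larger share of cells with JAG1 cannot be told apart either.

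The threshold was an adjusted p under 0.3. At 0.05 limma called 0 of the 17649 genes, although 1352 (7.66%) had an unadjusted p under 0.05. The count at 0.05 depended on the setting, with 36 among the genes averaging 1 CPM or more and 202 with GC content and transcript length removed. At 0.3, limma called 158 genes (0.895%), of which 119 (0.674% of genes tested) were higher and 39 (0.221%) lower with CML. The split depended on the scaling, with 46 higher and 27 lower after median centring and 90 and 54 after quantile normalization. Leaving out 1 library at a time gave between 20 and 690 called genes. With all libraries, 1 of the 10 Notch genes was called, JAG1, and with so few genes that share cannot be set apart from the background. Of the 8 members with a mean of at least 1 CPM, 4 were higher and 4 lower with CML, beside 7669 and 5378 of all 13047 genes at that level. The median log2 fold change was 0.00 for these members and 0.01 for all genes at that level. JAG1 lost its call when control replicate 2, CML replicate 2 or CML replicate 3 was left out (limma adjusted p = 0.310, 0.373 and 0.337), with a log2 fold change between 0.10 and 0.12 whichever library was removed. Without both libraries numbered 4 the log2 fold change was 0.12 and the limma adjusted p 0.242, and without control replicate 1 they were 0.10 and 0.279. The call was also lost when each library was centred on its median (log2 fold change 0.09, limma adjusted p = 0.324). In the fit of genes averaging 1 CPM or more, JAG1 kept its call with a limma adjusted p of 0.273, nearer the threshold.

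**Figure D1:**
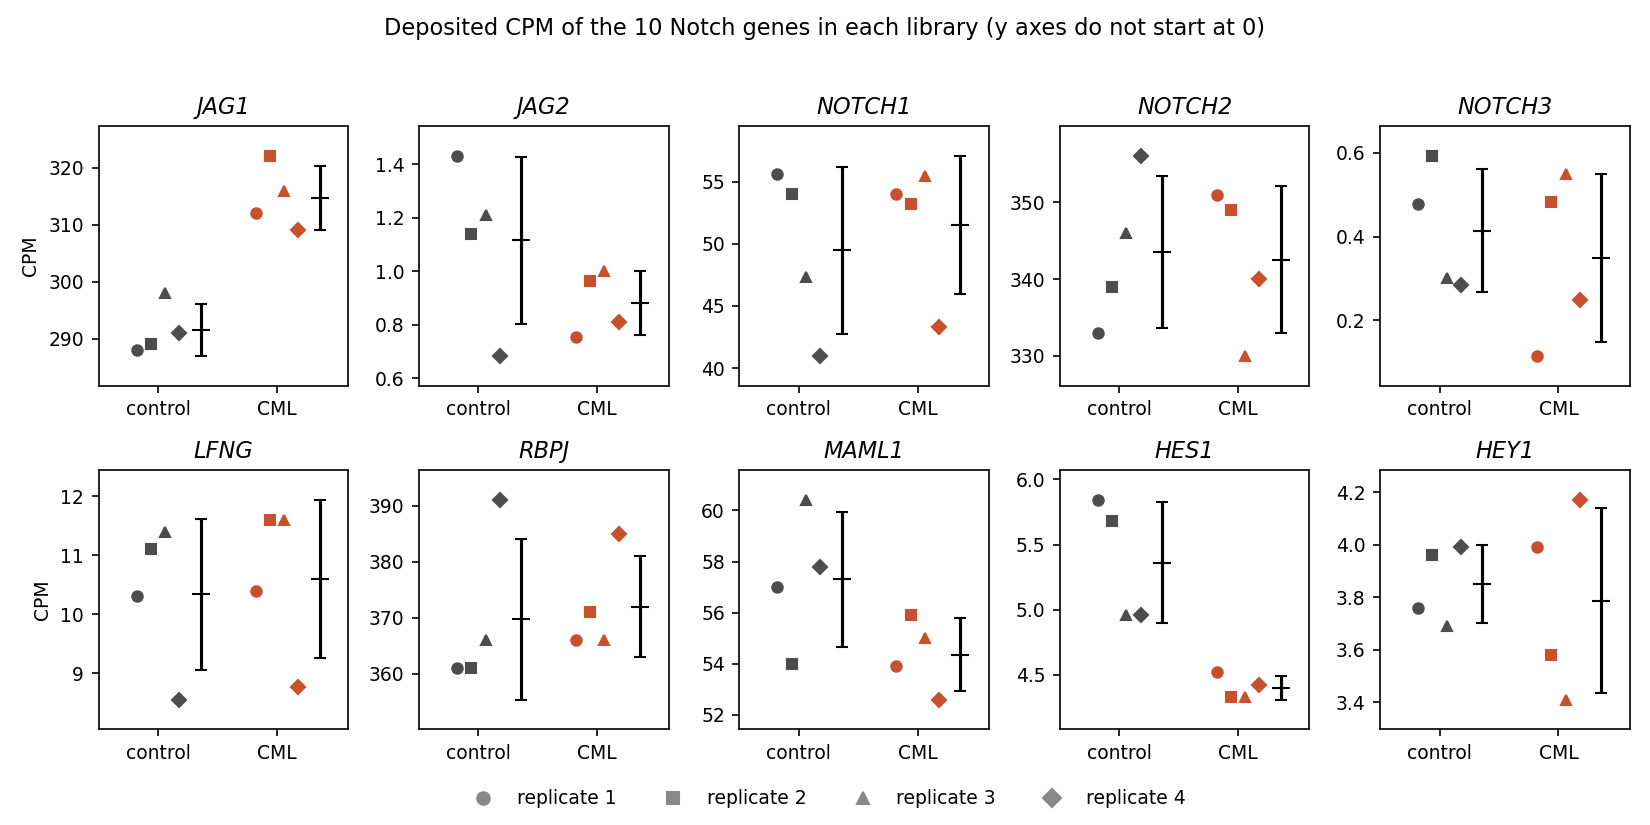
CPM of each of the 10 Notch genes (y axis, a separate scale per panel that does not start at 0) in the 4 control libraries (gray) and the 4 CML libraries (orange), with symbols for the replicate number and bars for the mean ± SD. The CML libraries lie above all control libraries for JAG1 (309 to 322 against 288 to 298 CPM) and below them for HES1 (4.33 to 4.52 against 4.96 to 5.84 CPM), and the groups overlap in the other panels.

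JAG2 (chr14:105140995-105168776), the other Jagged ligand, had 1.43, 1.14, 1.21 and 0.684 CPM in the control libraries. In the CML libraries it had 0.753, 0.963, 1.00 and 0.809 CPM. These values rest on 12 to 24 reads per library, an annotated RNA gene (ENSG00000257622) overlaps JAG2 on the same strand, and control replicate 4 was the lowest of all 8 while the other controls were the highest. The log2 fold change was −0.16 (95% confidence interval, −0.43 to 0.11) with a limma adjusted p of 0.864, so JAG2 did not pass the test with all libraries. The difference between JAG1 and JAG2 in log2(CPM + 1) averaged 7.12 ± 0.23 for the controls and 7.39 ± 0.08 with CML (SD, n = 4 each). Because JAG2 is near 1 CPM, the added 1 makes this value smaller than the log2 ratio of the 2 levels. The groups differed by 0.27, which did not pass a 2-sided exact permutation test (p = 0.114), and with a pseudocount of 0.1 they differed by 0.38 (exact permutation p = 0.171). Without control replicate 4 the difference was 0.37 and the exact permutation p was 0.0286, and JAG2 itself then had a limma adjusted p of 0.279. Without both libraries numbered 4 the difference was 0.36 (exact permutation p = 0.10, the smallest for 3 against 3) and JAG2 had a limma adjusted p of 0.416.

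Among the 5 canonical ligands, compared per kb of transcript, JAG1 made up between 97.8% and 98.7% of the summed level in every library. DLL4, a Delta-like ligand known from blood vessels, ranged from 1.85 to 2.36 CPM in control and from 1.93 to 3.42 CPM in CML-exposed cells, with a limma adjusted p of 0.799. DLL1 averaged 0.0950 CPM, with at most 6 reads in a library, and DLL3 was listed at 0 in all libraries. Of the noncanonical ligands, the neuronal protein DNER averaged 21.1 CPM and DLK2 3.25 CPM, and neither passed the test (limma adjusted p = 1.00 and 0.970).

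Of the receptors, NOTCH2 was the most abundant. It made up between 82.9% and 87.6% of the CPM per kb summed over the 4 Notch receptors, and NOTCH1 made up between 12.1% and 16.7%. NOTCH2 (chr1:119911553-120069662) had 333, 339, 346 and 356 CPM in control and 351, 349, 330 and 340 CPM in CML replicates 1 to 4, and its log2 fold change was −0.00 ± 0.028 (standard error), with a positive sign once GC content and length were removed together or the libraries numbered 4 were left out. The human genome holds partial copies of NOTCH2, such as NOTCH2NLA, which had between 7.58 and 10.5 CPM. How reads were divided between the copies is not stated, so the values of NOTCH2 are uncertain to that extent. The value of NOTCH2 was a whole number of reads in 0 libraries, while those of JAG1 and RBPJ were in all 8. Whether reads shared with the copies account for this was not tested.

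NOTCH1 (chr9:136494433-136546048) had 55.6, 54.0, 47.3 and 41.0 CPM in the control libraries. In the CML libraries it had 54.0, 53.2, 55.5 and 43.3 CPM. In both groups replicate 4 was the lowest, and the log2 fold change of 0.06 (standard error 0.118, limma adjusted p = 0.989) was smaller than the spread within a group. Its coefficient of variation of 13.5% in control and 10.8% in CML-exposed cells exceeded the 3.17% to 3.79% expected from counting. An RNA gene, ENSG00000227512, overlaps NOTCH1 on the opposite strand. NOTCH3, another receptor, had between 2 and 10 reads per library (0.116 to 0.591 CPM), too few for a comparison, and NOTCH4 averaged 0.774 CPM.

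LFNG (chr7:2512529-2529177) shared its lowest libraries with NOTCH1. It had 10.3, 11.1, 11.4 and 8.55 CPM in control and 10.4, 11.6, 11.6 and 8.77 CPM in CML replicates 1 to 4, again lowest in replicate 4 of both groups. The log2 fold change was 0.03 ± 0.116 (standard error). The other glycosyltransferases did not pass the test either. POFUT1, which adds the fucose that LFNG extends, had 158 ± 5.09 CPM in control and 155 ± 2.82 CPM in CML-exposed cells (SD, n = 4 each), and EOGT, which adds a different sugar, had 21.7 ± 1.03 and 22.7 ± 1.27 CPM (SD, n = 4 each).

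RBPJ (chr4:26105449-26435131), the protein that places Notch on DNA, had 361, 361, 366 and 391 CPM in control replicates 1 to 4. In the CML libraries it had 366, 371, 366 and 385 CPM. Here replicate 4 was the highest of each group, the reverse of NOTCH1 and LFNG. The log2 fold change of 0.01 (standard error 0.031) had a limma adjusted p of 1.00, and its sign turned negative with median centring, with quantile normalization and with GC content and length removed together. MAML1 (chr5:179732822-179777283), a coactivator in the RBPJ complex, had 57.0, 54.0, 60.4 and 57.8 CPM in control and 53.9, 55.9, 55.0 and 52.6 CPM in CML-exposed cells. The groups overlapped through control replicate 2, and the log2 fold change was −0.07 (limma adjusted p = 0.718).

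The transcripts of NOTCH1 and LFNG have 63.5% and 63.1% GC, that of RBPJ has 37.2%, and those of the other 5 members averaging 1 CPM or more have between 46.7% (HEY1) and 55.5% (MAML1). After the trend of each library with GC content and with the length of the transcript was removed, the within-group SD on the log2 scale went from 0.180 to 0.094 for NOTCH1, from 0.171 to 0.116 for LFNG and from 0.046 to 0.018 for RBPJ. It also went down for genes of middle GC content, from 0.041 to 0.023 for NOTCH2, from 0.053 to 0.031 for MAML1 and from 0.081 to 0.068 for HEY1. For JAG1 it went from 0.023 to 0.027 and for HES1 from 0.077 to 0.081. The decrease was thus not limited to the genes at the ends of the GC range. With this trend removed, limma called 1023 of 12928 genes (7.91%). JAG1 was the member among them, with a log2 fold change of 0.12 (limma adjusted p = 0.00914). Without the libraries numbered 4, limma gave log2 fold changes of 0.05 for NOTCH1, 0.03 for LFNG and 0.02 for RBPJ, the lowest adjusted p of the 3 being 0.642.

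HES1, a repressor of the basic helix-loop-helix family, is a standard readout of Notch activity. The gene lies at chr3:194136148-194138732 (GRCh38.p14, plus strand), and RefSeq's promoter table of that build gives the 250 bases before its start, chr3:194135898-194136147. They are shown because this stretch holds the letters that RBPJ is known to bind, GTGGGAA, in capitals here.

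HES1 promoter: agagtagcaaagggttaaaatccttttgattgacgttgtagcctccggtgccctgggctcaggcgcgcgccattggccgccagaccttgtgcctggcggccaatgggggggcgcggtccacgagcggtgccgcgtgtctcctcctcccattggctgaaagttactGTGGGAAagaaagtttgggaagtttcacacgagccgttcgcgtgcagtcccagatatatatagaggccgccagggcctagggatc

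The match begins 85 bases before the start of the gene, and TGGGAA, which GTGGGAA contains, occurs at a total of 2 places in the window. Both strands were searched, so TTCCCAC counts as a match. Of 35116 promoter windows of this length in the table, 5.43% held GTGGGAA, and 6.69% of the genes held it in at least 1 window, since a gene can have several starts. Of the 9 members with a window, 2 held it, HES1 and RBPJ, and the window of JAG1 did not. RBPJ held it in 1 of its 5 windows, at 2 places, which begin 115 and 73 bases before that start. Of the 67 genes of the wider pathway list with a window, 8 held it. Apart from HES1 and RBPJ these were the targets HES4, HES5, HEY2 and HEYL and the corepressors CTBP2 and L3MBTL3, so that 5 of the 9 targets with a window held it and HES2, HES6, HES7 and NRARP did not. HES4 and HEYL are shown as further targets, and their sites are set beside those of HES1 and RBPJ (GRCh38.p14, read along the strand of each gene, plus for HES1 and RBPJ and minus for HES4 and HEYL), with 12 bases on each side and the match in capitals. For RBPJ the match farther from the start is shown.
HES1, chr3:194136051-194136081: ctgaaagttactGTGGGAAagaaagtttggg
RBPJ, chr4:26319619-26319649: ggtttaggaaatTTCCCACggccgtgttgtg
HES4, chr1:1000156-1000186: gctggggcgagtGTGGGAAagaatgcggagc
HEYL, chr1:39639803-39639833: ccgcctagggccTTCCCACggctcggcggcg

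A match of letters is a description of the sequence and was not tested for binding.

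HES1 had 5.84, 5.68, 4.96 and 4.96 CPM in control replicates 1 to 4. In CML replicates 1 to 4 it had 4.52, 4.33, 4.33 and 4.42 CPM. Every CML library lay below every control library, with the CML values close together and the control values in 2 pairs. The mean was 5.36 ± 0.467 CPM in control and 4.40 ± 0.0883 CPM in CML-exposed cells (SD, n = 4 each), and the log2 fold change was −0.23 ± 0.063 (standard error; 95% confidence interval, −0.38 to −0.08). The limma p was 0.00771 and the adjusted p 0.400. Between 71 and 98 reads lay behind each value, from which counting alone gives a coefficient of variation of 10.1% to 11.9%. That is well above the 2.01% seen among the CML libraries and above the 8.72% among the controls. The standard error, interval and p of HES1 rest on this narrow spread and are therefore likely too small. Without control replicate 4 the log2 fold change was −0.26 and the limma adjusted p 0.268, and without both libraries numbered 4 they were −0.27 and 0.391. Without control replicate 1 they were −0.20 and 0.546.

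Groups that do not overlap were not rare among all genes averaging 1 CPM or more, where CML lay above control for 3.04% and below it for 1.30%. Of the 8 members at that level, JAG1 was above and HES1 below. Across the 8 libraries HES1 and JAG1 had a Pearson correlation of −0.92, in values that share library, scaling and group difference. The corresponding value was −0.89 for NOTCH1 with RBPJ, 0.77 for NOTCH1 with LFNG and −0.81 for LFNG with RBPJ, the genes at the ends of the GC range.

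HEY1, a related repressor and Notch target, had 3.76, 3.96, 3.69 and 3.99 CPM in control and 3.99, 3.58, 3.41 and 4.17 CPM in CML-exposed cells. The CML range enclosed the control range, and the log2 fold change was −0.02 (limma adjusted p = 1.00). HEY2, HEYL and HES4 had means of 0.149, 0.294 and 0.628 CPM, under 1 CPM, while HES5 and HES7 were not analysed here. CCND1, the cell cycle gene encoding cyclin D1, which LTO1 overlaps on the opposite strand, had 351 ± 9.49 CPM in control and 367 ± 3.77 CPM in CML-exposed cells (SD, n = 4 each), with a limma p of 0.0196 and an adjusted p of 0.510. MYC, a growth-promoting transcription factor and Notch target in some cells, which CASC11 overlaps on the opposite strand, was named after its values were seen. It had 269 ± 12.7 CPM in control and 294 ± 12.7 CPM in CML-exposed cells (SD, n = 4 each), a log2 fold change of 0.13 with a limma adjusted p of 0.549.

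**Figure D2:**
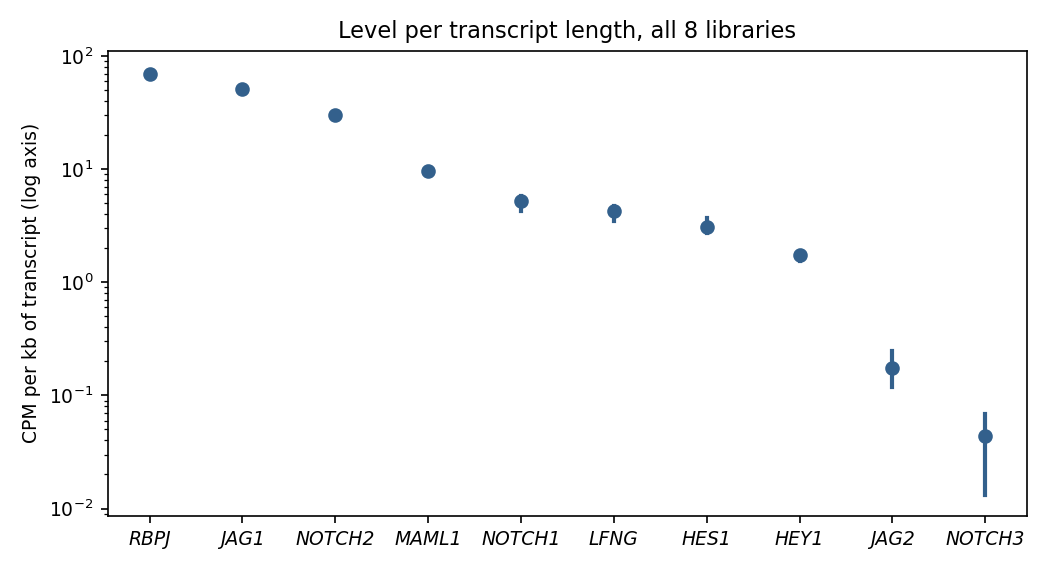
Level of the 10 Notch genes in CPM per kb of transcript (log axis), with points for the mean over all 8 libraries and lines from the lowest to the highest library. RBPJ (68.7), JAG1 (51.0) and NOTCH2 (30.0) lead, and JAG2 (0.173) and NOTCH3 (0.0439) are lowest.

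Per kb of transcript, the members spanned a wide range. RBPJ led with 68.7 ± 2.07 CPM per kb (SD over all 8 libraries), followed by JAG1 with 51.0 ± 2.22 and NOTCH2 with 30.0 ± 0.797. MAML1 had 9.71, NOTCH1 5.28, LFNG 4.28, HES1 3.10 and HEY1 1.74 CPM per kb. JAG2 had 0.173 and NOTCH3 0.0439. The ranges over the libraries overlapped between NOTCH1 and LFNG and between LFNG and HES1, although each member was above the next in all 8 libraries. The ranges of all other neighbors in this order were separate.

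The wider pathway was described with a list of 82 genes by role, members included, of which 79 were analysed and 64 had a mean of at least 1 CPM. JAG1 was the single gene of the 79 that limma called at 0.3, beside 158 of all 17649 genes (0.895%). Of the 64 genes, 38 were higher and 26 lower with CML, beside 7669 and 5378 of all 13047 genes at that level. The median log2 fold change was 0.02 for the 64 genes and 0.01 for all genes at that level. An unadjusted limma p under 0.05 was reached by 6 of the 79 (7.59%), close to the 7.66% of all genes. These were JAG1, CCND1, MYC and CDK8 in the direction of higher values and HES1 and DTX3 in the direction of lower ones. CML lay above control without overlap for 1 of the 64 genes (1.56%), JAG1, and below it for 2 (3.12%), HES1 and DTX3, beside 3.04% and 1.30% of all genes at that level.

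None of the 9 proteases that process ligand and receptor was called, and their log2 fold changes lay between −0.04 and 0.06. ADAM10, which cuts the receptor after a ligand binds, had 166 ± 13.2 CPM in control and 173 ± 7.93 CPM in CML-exposed cells, and APH1A, a γ-secretase subunit, had 164 ± 3.68 and 168 ± 1.64 CPM (SD, n = 4 each). None of the 15 genes of trafficking and ubiquitin ligation was called. Among them, DTX3, a Deltex-family ubiquitin ligase, had 23.8 ± 1.17 CPM in control and 20.8 ± 1.45 CPM in CML-exposed cells (SD, n = 4 each), with every CML library below every control library and a log2 fold change of −0.19 (limma adjusted p = 0.474). MIB1, the ligase that lets the sending cell take up the bound ligand, had 108, 111, 110 and 124 CPM in control and 117, 118, 120 and 127 CPM in CML-exposed cells. Replicate 4 was the highest of both groups, and the log2 fold change was 0.09 (limma adjusted p = 0.760). MIB1 was called without control replicate 4 (log2 fold change 0.13, limma adjusted p = 0.260) and without both libraries numbered 4 (0.11, limma adjusted p = 0.203).

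None of the 11 nuclear coactivators and none of the 16 corepressors was called. CDK8, a kinase of the Mediator complex that phosphorylates the Notch intracellular domain, had 16.5, 18.9, 22.6 and 19.3 CPM in control and 22.2, 21.7, 22.9 and 23.6 CPM in CML-exposed cells. Control replicate 3 lay within the CML range, and the log2 fold change of 0.22 had a limma adjusted p of 0.598. CTBP2 and KDM5A are corepressors. A gene on the opposite strand overlaps each of them, and the same holds for DLK2, APH1A, NOTCH2, DNER, ADAM10 and MIB1 above, so that their values carry the same limit as that of JAG1. Annotated genes on the same strand also overlap ADAM10 and MIB1. CTBP2 had 142 ± 2.93 and 145 ± 2.42 CPM and the histone demethylase KDM5A 56.1 ± 4.25 and 60.4 ± 2.47 CPM in control and CML-exposed cells (SD, n = 4 each). With GC content and transcript length removed, limma called 7 of the 64 genes of the list (10.9%), beside 7.91% of all genes in that fit, with JAG1, MIB1, CDK8, KDM5A, MYC and CCND1 higher and DTX3 lower.

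**Figure D3:**
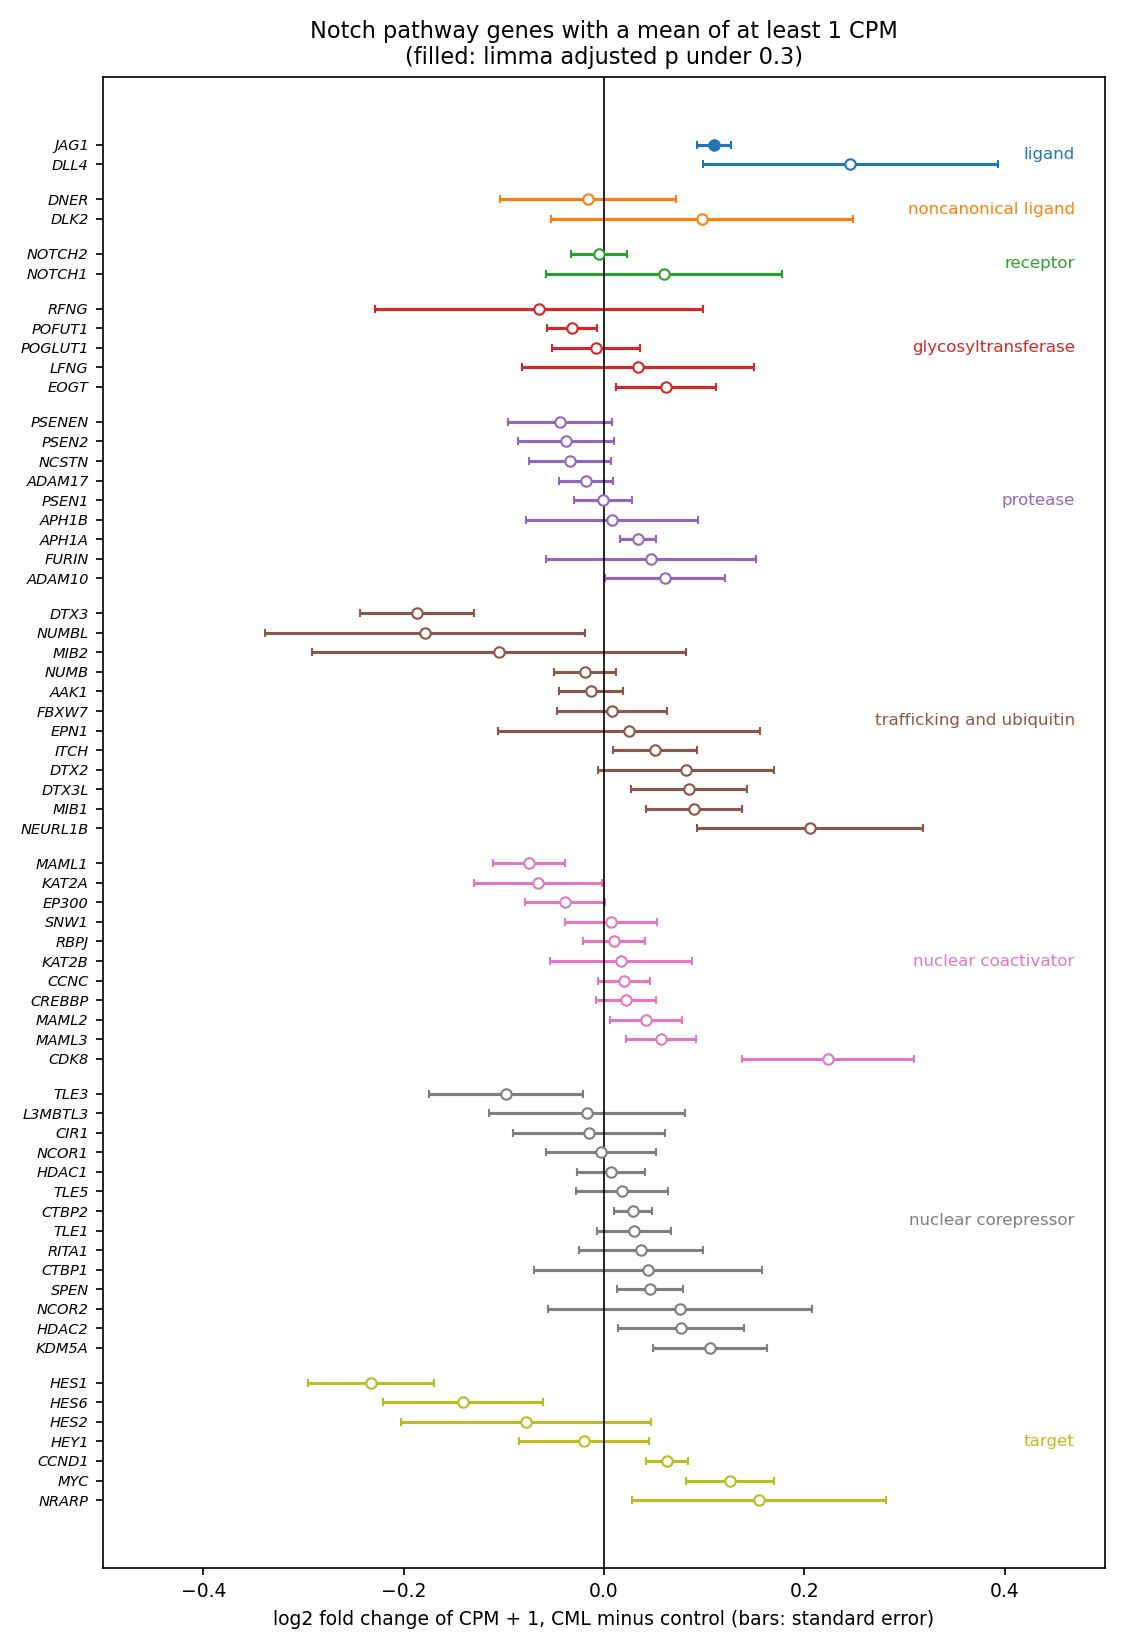
Log2 fold change of CPM + 1, CML minus control (x axis), for the 64 Notch pathway genes averaging 1 CPM or more, grouped and colored by role, with bars for the standard error. The filled point marks JAG1 (0.11), the gene with a limma adjusted p under 0.3, and all log2 fold changes lie between −0.23 and 0.25.

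The 5 genes whose levels followed JAG1 most closely over the 8 libraries, by Pearson correlation among the other 13046 genes averaging 1 CPM or more, were HBEGF (0.979), CIT (0.968), COL8A1 (0.966), MYL5 (0.965) and CCNF (0.961). The points share library and scaling. Since the genes were chosen for following JAG1, whose groups do not overlap, the difference between their own groups largely follows from the choice, and it is given with no test. HBEGF, an EGF-family growth factor, had 174 ± 5.35 CPM in control and 197 ± 3.32 CPM in CML-exposed cells. CCNF, which encodes cyclin F, had 11.6 ± 0.645 and 14.4 ± 0.557 CPM. CIT, a kinase of cell division, had 40.1 ± 1.22 and 46.6 ± 2.36 CPM, the collagen gene COL8A1 96.4 ± 4.28 and 107 ± 2.06 CPM, and the myosin light chain gene MYL5 7.97 ± 0.230 and 9.21 ± 0.618 CPM (SD, n = 4 each throughout).

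**Figure D4:**
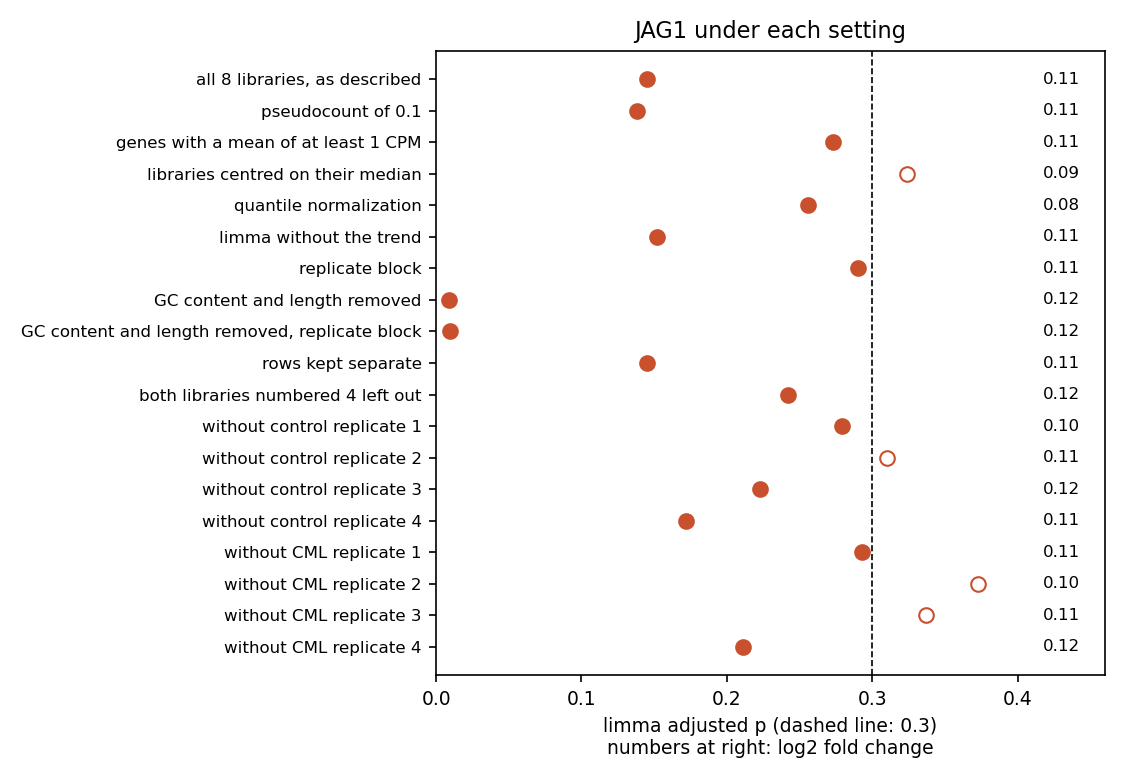
Adjusted limma p of JAG1 (x axis) with all 8 libraries, under each other way of processing and with libraries left out, with the log2 fold change at the right of each line. Filled points lie under the threshold of 0.3 (dashed line), and the 4 open points are median centring (0.324) and the fits without control replicate 2 (0.310), CML replicate 2 (0.373) and CML replicate 3 (0.337).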

How the data were processed

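RNA-Seq of MDA-MB-231 cells was measured in 4 control and 4 CML libraries, grouped by sample title. The authors deposited CPM values, which the study's methods describe as scaled by TMM factors, and the submitters' processing notes name hg38 and edgeR. For the tumors, the study's methods name Tophat, an Ensembl annotation and a human genome build other than hg38. For the CML experiment itself the aligner, counter and annotation are not given in the sources used here. The instrument is labelled both as a NextSeq and as a HiSeq. The columns summed to between 986730 and 1014124. In each library 85.1% to 86.1% of values above 0 were whole reads (tolerance 0.02 reads), so the reads were taken as estimates and no count test was run.

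From the 17681 deposited lines, 32 symbols with more than 1 line were averaged, which gave 17649 genes, and log2(CPM + 1) was compared with limma 3.58.1 (R 4.3.3), with a variance trend and no covariates. Adjustment was by Benjamini-Hochberg, and the threshold followed the legend of the study's heatmap. Fold changes on this scale understate those of low genes. The exact permutation tests counted every labelling of the libraries in Python 3.11.15. The limma step was also run on simulated data. These lacked the GC trend of the libraries, so that run does not bear on calls affected by the trend. Lengths, GC content and overlapping genes came from GENCODE 44 canonical transcripts lifted to GRCh37, which had a value for 99.1% of genes averaging 1 CPM or more, and coordinates from RefSeq GRCh38.p14. Promoters were searched for GTGGGAA on both strands.

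The members and lists were chosen with earlier results of these data known. Genes named were the 10 members, list genes called, the 2 genes with the smallest p in each role among genes averaging 1 CPM or more, and the 5 genes closest to JAG1. Genes named beyond this rule, among them MYC, low-count list members and NOTCH2NLA, were chosen after their values were seen, and marker genes came from a list. The settings tried were a smaller pseudocount (0.1), genes averaging 1 CPM or more, lines kept separate, median centring, quantile normalization, limma without the trend, a replicate block, removal of GC content and length, and each library left out. Leaving out both libraries numbered 4 was chosen after seeing the data.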

Additional observations from a re-analysis of the deposited data

Results flagged for a closer look

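The highest or lowest library was compared with the other 3 of its group by Dixon's test in 60 groups of 4. It lay beyond the 95% critical value in 3, and 3.00 would be expected, since chance does so in about 1 in 20 groups. MIB1, which encodes a ubiquitin ligase for Notch ligands, had 124 CPM in control replicate 4 while the remaining controls had 108 to 111 CPM. COL8A1, a collagen gene close to JAG1 in pattern, reached 110 CPM in CML replicate 2, while the remaining CML libraries had 105 to 106 CPM. Control replicate 4 held 17729518 estimated reads, and the other control libraries held between 16559913 and 16690411. The base composition of control replicate 4 also differed from that of the other controls, with the genes of highest GC content (at least 61.5%) at a median log2 deviation of −0.19, and its part in the MIB1 value was not tested.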

How the results depend on the processing

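JAG1 was higher with CML in all alternatives that were run. With each library centred on its median its log2 fold change was 0.09 (limma adjusted p = 0.324), 73 of all genes were called, and 0 members and 0 pathway genes were called. With GC content and length removed the calls were 1023 for all genes and 7 for the pathway list, and with the replicate block added they were 1126 and 8. Leaving out both libraries numbered 4 gave 321 genes and 3 pathway genes (JAG1, MIB1 and MYC). The causes of these changes were not tested. Leaving out 1 library at a time gave between 20 (without CML replicate 2) and 690 genes (without control replicate 4), 0 to 3 members, 0 to 4 pathway genes, a log2 fold change of 0.10 to 0.12 for JAG1 and a JAG1 to JAG2 difference of 0.19 to 0.37. The 3 members without control replicate 4 were JAG1, JAG2 and HES1, and the other pathway gene was MIB1. At an adjusted p of 0.05 limma called 0 genes with all 8 libraries, 36 among genes averaging 1 CPM or more, 202 with GC content and length removed and 228 with the block added.

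Libraries with the same number had correlations of 0.199, −0.0303, −0.0645 and 0.334 between their deviations from the group means. The libraries numbered 1 correlated best with each other, as did those numbered 4, while those numbered 2 and 3 did not. The number was therefore not taken as a pairing in the main fit. Whether libraries of the same number shared a batch was not tested. With the replicate block limma called 189 genes, 1 member and 2 pathway genes (JAG1 and MYC), and JAG1 had an adjusted p of 0.290. The JAG1 to JAG2 difference of 0.27 then had a p of 0.250 in an exact sign-flip test, which switches the signs of the differences between same-numbered libraries.

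Small changes turned sign. RBPJ had −0.01 with median centring, −0.00 with quantile normalization and −0.01 with GC content and length removed, with or without the block. NOTCH2 had 0.01 with GC content and length removed, with or without the block, and 0.02 without the libraries numbered 4, where DNER had 0.03. CTBP2 had −0.00 with quantile normalization. With 1 library left out, the log2 fold change ranged from −0.02 to 0.14 for NOTCH1, −0.02 to 0.01 for NOTCH2, −0.15 to 0.01 for NOTCH3, −0.05 to 0.11 for LFNG, −0.01 to 0.04 for RBPJ, −0.06 to 0.02 for HEY1, −0.01 to 0.20 for DLK2 and −0.06 to 0.05 for DNER. Of the 453 values of 27 named genes other than JAG1, 386 kept direction and side of the threshold.

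JAG2, which averages under 1 CPM, was not in the filtered or GC-corrected fits, and its difference from JAG1 was not run there. Counting error limits JAG2, NOTCH3 and HES1, and intervals for reads cover counting error only.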
